A study of Caenorhabditis elegans with 12 samples.

Results

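The col genes encode small collagens, most of them structural proteins of the nematode cuticle, and 128 of them were measured among the 17118 genes that the arrays covered with a probe set of their own. A member was any gene whose symbol begins with col- and a digit and that had at least 1 probe set (a group of short probes read as 1 value) annotated to it alone. For the 16 members with more than 1 such probe set, the brightest one by its mean was used. A gene table of assembly WBcel235 lists 159 col symbols, so 31 col genes had no probe set of their own.

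RNA came from whole Caenorhabditis elegans embryos of the 3-fold stage, which have nearly finished elongating. The 3 genotypes were a double mutant, daf-19(m86), daf-12(sa204) (strain JT6924), a single mutant, daf-12(sa204) (strain JT204), and the N2 Bristol wild type (strain JT5010). Both mutants carry daf-12(sa204), so the double mutant differs from the single mutant by daf-19(m86), and each genotype is 1 strain. The product of daf-19 is the worm's RFX-type factor, which activates ciliary genes in sensory neurons, and that of daf-12 is a steroid receptor of dauer and stage decisions. Each genotype had 4 deposited arrays, but arrays 1 and 2 of the double mutant held identical values and were counted as 1, called array 1-2 here, which left 3, 4 and 4 arrays. Nothing in the labels ties replicates to separate cultures, p-values therefore measure only the spread between these arrays, and precision is limited by how few arrays there are.

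The cuticle is an extracellular layer secreted by the epidermis and rebuilt at each moult, and the first one is laid down in the late embryo. Cuticle collagens are Gly-X-Y repeat proteins that are processed in the secretory pathway, trimmed by proteases and cross-linked outside the cell. In each round of cuticle synthesis their genes are transcribed in successive waves, with furrow collagens such as dpy-7 early and genes such as col-12 later, and some belong to 1 stage, such as col-19 of the adult cuticle or col-2 of the dauer cuticle.

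All values were RMA expression values on the log2 scale, as deposited. The arrays fell into 2 sets by replicate number that the labels do not explain. The 27 bacterial control probe sets averaged 4.08 to 4.24 on replicates 1-2 of all genotypes (5 arrays) and 6.76 to 9.49 on replicates 3-4 (6 arrays), while the median of all probe sets lay between 6.20 and 6.36 on every array. Results are therefore given over all arrays and within these sets. In RNA from whole embryos, fewer cells of a type and less RNA per cell cannot be told apart. The epidermis was represented: 10 epidermal markers, among them dpy-7, elt-3 and lin-26, had means over the arrays of at least 6.08.

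The members covered nearly the whole range of the arrays. Their means ran from 4.01 to 14.34 with a median of 7.10, and 7 of 128 lay under the lower quartile of all probe set means, 4.74. The 10 highest means were those of col-93 (14.34), col-125 (14.24), col-43 (13.71), col-165 (13.40), col-74 (13.17), col-119 (12.91), col-157 (12.77), col-107 (12.76), col-147 (12.53) and col-146 (12.45). The 4 lowest were those of col-55 (4.01), col-49 (4.19), col-163 (4.30) and col-126 (4.53). Each is the value of 1 probe set, and levels of different probe sets are not set against each other. By the suffixes of the array design, 77 members were read by ordinary probe sets (_at), 29 by probe sets common to several transcripts (_s_at) and 22 by probe sets in which some probes match other sequences (_x_at), so near-identical collagen genes may share signal.

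Among members known for a stage or a wave, the adult gene col-19 read 4.60, 4.49 and 4.76 in the double mutant, 4.94, 4.66, 4.74 and 4.68 in the single mutant and 4.67, 4.16, 5.18 and 4.90 in wild type. Its mean of 4.71 lay just under the lower quartile of all probe sets, and the 3 groups overlapped. The dauer-associated gene col-2 read 6.36, 7.12 and 7.35 in the double mutant, 7.07, 6.22, 7.12 and 7.36 in the single mutant and 6.47, 5.96, 8.31 and 7.58 in wild type. The groups overlapped here too, and in each genotype the arrays of replicates 3-4 were the higher ones. The later-wave gene col-12 read 12.01, 11.84 and 11.94 in the double mutant, 12.48, 12.23, 12.53 and 12.38 in the single mutant and 10.94, 10.74, 12.68 and 12.29 in wild type. Wild-type arrays 1 and 2 stood below all others for col-12, and wild-type array 3 stood highest.

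The contrast of both mutants, double minus single, bears on daf-19(m86) in the daf-12(sa204) background. No member was called in either direction (adjusted p under 0.05, limma over all 22548 probe sets), and of all probe sets 0.0577% were called lower and 0% higher. Of the 128 members 100 were below 0, with a median log2 difference of -0.15 against -0.01 for all probe sets. At an unadjusted p under 0.05, 3 members were lower and 1 was higher, against 2.39% and 2.53% of all probe sets. The double mutant has 1 of its 3 arrays in replicates 1-2 and each other genotype 2 of 4, so its contrasts are unbalanced over the sets. A limma fit that also had a term for the set gave a median of -0.22 against 0.01, with 109 members below 0. It called no member, and of all probe sets 0.182% were called lower and 0.031% higher. At an unadjusted p under 0.05, 16 members were lower and 0 higher, against 4.66% and 4.05% of all probe sets. The arrays of both groups did not overlap for 11 members on the lower side, among them col-12, col-39, col-56, col-91, col-131 and col-159, and for 1 on the higher side, col-140. The same held for 2.97% and 2.29% of all probe sets.

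The members furthest below 0 were col-156 (-1.43), col-58 (-0.97), col-180 (-0.95), col-91 (-0.86) and col-39 (-0.86), and those furthest above were col-121 (0.66), col-76 (0.61), col-40 (0.28), col-140 (0.27) and col-35 (0.27). The gene col-156 read 7.29, 8.16 and 8.30 in the double mutant, 8.71, 7.79, 10.70 and 10.20 in the single mutant and 7.55, 6.77, 9.70 and 8.68 in wild type. Its single mutant arrays 3 and 4 stood highest, and the double mutant overlapped the single mutant through single mutant array 2. The log2 difference of col-156 was -1.43 ± 0.76 (SE), with a limma adjusted p of 1. The smallest unadjusted p was that of col-56, at 6.33 ± 0.12 (SD, n = 3) in the double mutant and 7.06 ± 0.60 (SD, n = 4) in the single mutant. Its log2 difference was -0.74 ± 0.30 with a limma adjusted p of 0.952. The second, dimmer probe set of col-56 gave -0.25 ± 0.20, and there the arrays of both groups overlapped.

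Within both sets of arrays the members' median difference between the double mutant and the single mutant was below 0. It was -0.28 within replicates 1-2, with 117 of 128 members below 0, and -0.14 within replicates 3-4, with 84 below 0. Replicates 1-2 hold a single double mutant array, and 0 members were called there in limma, with 7 lower and 0 higher at an unadjusted p under 0.05 against 1.42% and 1.38% of all probe sets. Within replicates 3-4, where each genotype has 2 arrays, limma called 9 members lower and 0 higher, against 4.66% and 3.73% of all probe sets. At an unadjusted p under 0.05 the counts were 23 lower and 3 higher, against 13.6% and 12.8% of all probe sets, so that the lower count lay near the share of all probe sets. The 9 were col-54, col-56, col-58, col-65, col-77, col-145, col-156, col-180 and col-182, of which col-54 (-1.51), col-65 (-0.94) and col-145 (-0.81) were chosen for naming after their values were seen.

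Of these 9, col-182 had the smallest adjusted p within replicates 3-4. It read 6.90, 7.98 and 7.99 in the double mutant, 7.51, 6.41, 9.20 and 9.51 in the single mutant and 6.46, 7.36, 8.62 and 8.61 in wild type. Within replicates 3-4 the double mutant was the lowest genotype for col-182 and the single mutant the highest, and the difference between them was -1.37 ± 0.18 (SE) with a limma adjusted p of 0.0105. Within replicates 1-2 the same difference was -0.06. For col-156 the 2 within-set differences were -2.22 ± 0.34 (limma adjusted p of 0.0157) and -0.96.

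Double mutant and wild type gave no called member either, while 0.102% of all probe sets were called lower and 0.0133% higher. The median over the members was -0.02 against -0.03 for all probe sets, and 67 of 128 were below 0. In limma at an unadjusted p under 0.05, 1 member was lower and 0 were higher, against 2.08% and 1.93% of all probe sets. The arrays did not overlap for 1 member on each side, col-131 lower and col-140 higher, against 2.66% and 1.53% of all probe sets. The furthest members were col-131 (-0.89), col-176 (-0.55), col-52 (-0.46), col-148 (-0.46) and col-149 (-0.45) below 0, and col-39 (0.74), col-181 (0.53), col-180 (0.48), col-146 (0.47) and col-98 (0.46) above.

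The 3 double mutant arrays of col-131 read 9.27, 9.16 and 8.88, the single mutant arrays 9.65, 9.82, 9.49 and 9.76, and the wild-type arrays 10.03, 9.30, 10.22 and 10.44. On this probe set the double mutant lay below every array of both other genotypes, by a narrow margin for wild-type array 2. The second, dimmer probe set read 8.21, 8.85 and 8.57 in the double mutant. It overlapped both other genotypes, through single mutant array 1 (8.73) and wild-type array 2 (8.34). The difference from wild type was -0.89 ± 0.25 (SE) on the first probe set, with a limma adjusted p of 0.697. It was -0.79 on the second, and both averaged gave -0.84. Within replicates 3-4 the first probe set differed by -1.31 ± 0.20 (limma adjusted p of 0.0387). The gene col-131 was the 1 member called lower there, with 0 higher, against 0.577% and 0.297% of all probe sets. At an unadjusted p under 0.05, 38 members were lower and 3 higher within replicates 3-4, against 8.01% and 8.73% of all probe sets.

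The median difference between the double mutant and wild type had opposite signs in the 2 sets of arrays. It was 0.16 within replicates 1-2, where 36 of 128 members were below 0, and -0.34 within replicates 3-4, where 110 were below 0. For col-39 the differences were 2.36 and -0.79, and for col-12 they were 1.16 and -0.59.

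The comparison of the single mutant with wild type bears on daf-12(sa204) alone. It had no called member, and of all probe sets 0% were called lower and 0.0133% higher. The members' median was 0.11 against -0.03 for all probe sets, and 84 of 128 were above 0. In limma at an unadjusted p under 0.05, 0 members were lower and 9 were higher, against 1.09% and 1.93% of all probe sets. A term for the set left the median at 0.11 and called no member, while 0% of all probe sets were called lower and 0.0222% higher. With that term 0 were lower and 21 higher at an unadjusted limma p under 0.05, against 2.58% and 3.26%. No member had arrays that did not overlap, against 0.723% of all probe sets on the lower side and 0.878% on the higher side. The furthest members were col-39 (1.60), col-180 (1.43), col-91 (1.25), col-156 (1.18) and col-159 (1.18) above 0, and col-121 (-0.49), col-76 (-0.45), col-149 (-0.38), col-40 (-0.33) and col-131 (-0.32) below. The smallest unadjusted p belonged to col-147 (0.96 ± 0.33, limma adjusted p of 1), followed by col-159 and col-115 (0.73).

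Here too the sets of arrays differed. Within replicates 1-2 the median was 0.43 and 8 of 128 members were below 0, and within replicates 3-4 the median was -0.20 and 84 were below 0. No member was called in limma within either set. Of all probe sets 0% were called in either direction within replicates 1-2. Within replicates 3-4, 0% were called lower and 0.0577% higher. At an unadjusted p under 0.05 the member counts were 0 lower and 29 higher within replicates 1-2, against 4.33% and 2.85% of all probe sets. Within replicates 3-4 they were 24 lower and 9 higher, against 9.47% and 10.1% of all probe sets, so that the higher count lay below the share of all probe sets. The gene col-39 read 11.30, 10.61, 11.22 and 10.31 in the single mutant, 7.74, 7.95, 11.24 and 10.13 in wild type and 10.21, 9.83 and 9.97 in the double mutant. The low values were wild-type arrays 1 and 2, and the other 9 arrays lay between 9.83 and 11.30.

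**Figure D1:**
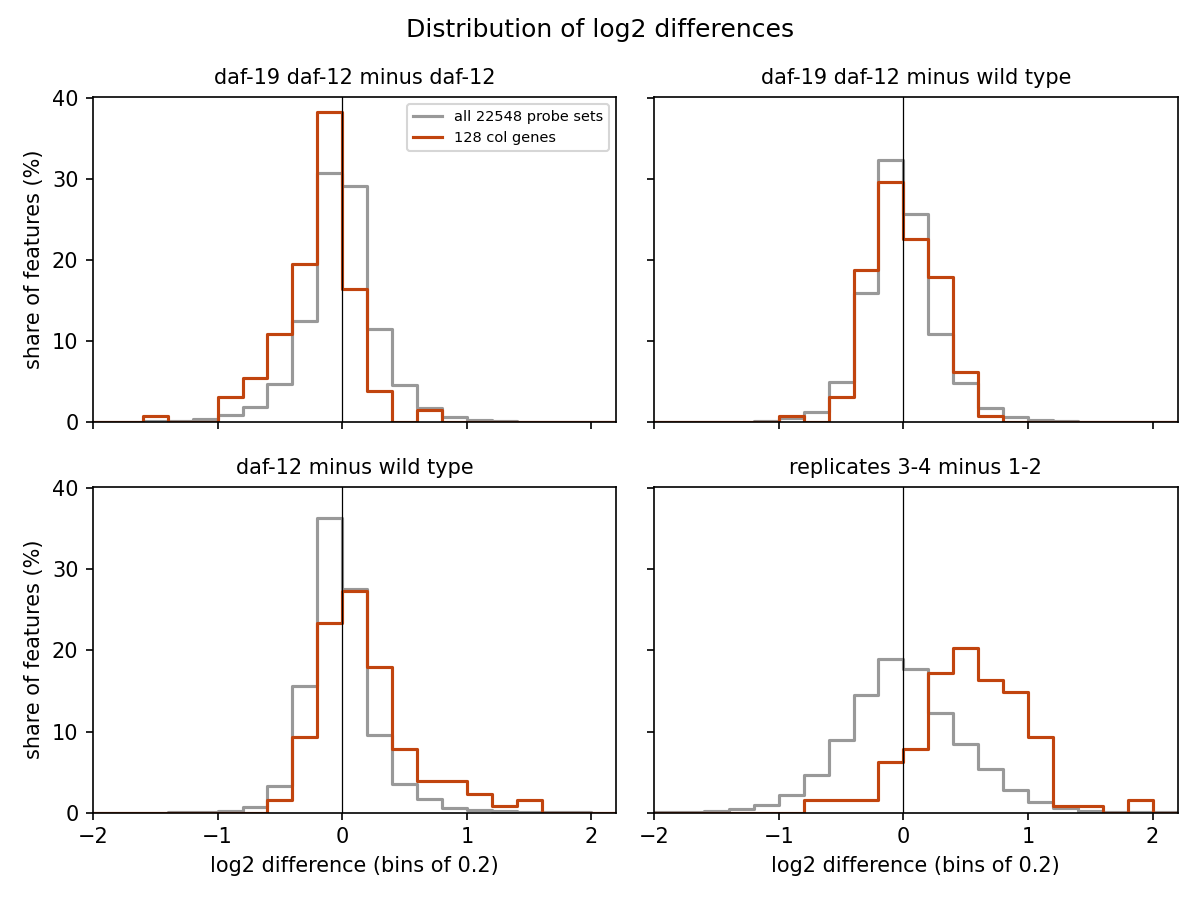
Distribution of log2 differences for the 128 col genes (orange) and all 22548 probe sets (grey), in bins of 0.2, as the share of features in percent, in the 3 genotype comparisons and in replicates 3-4 minus 1-2. The medians of the col genes are -0.15, -0.02 and 0.11 in the genotype comparisons and 0.55 between the sets.

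Over all arrays, the contrast with the most called members was that of the sets, replicates 3-4 minus 1-2 with the genotype as a term. The labels give the numbers no meaning, so it is a contrast between arrays. In it 60 members were higher on replicates 3-4, 3 were lower and 65 were not called, while 10.9% of all probe sets were higher and 13.7% lower. The median over the members was 0.55 against -0.01 for all probe sets, and 114 of 128 were above 0. All arrays of one set lay above all of the other for 26 members on the higher side and 1 on the lower, against 5.01% and 8.63% of all probe sets. The difference was above 0 in every genotype for 82 members (21.6% of all probe sets) and below 0 in every genotype for 6 (26.9%).

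**Figure D2:**
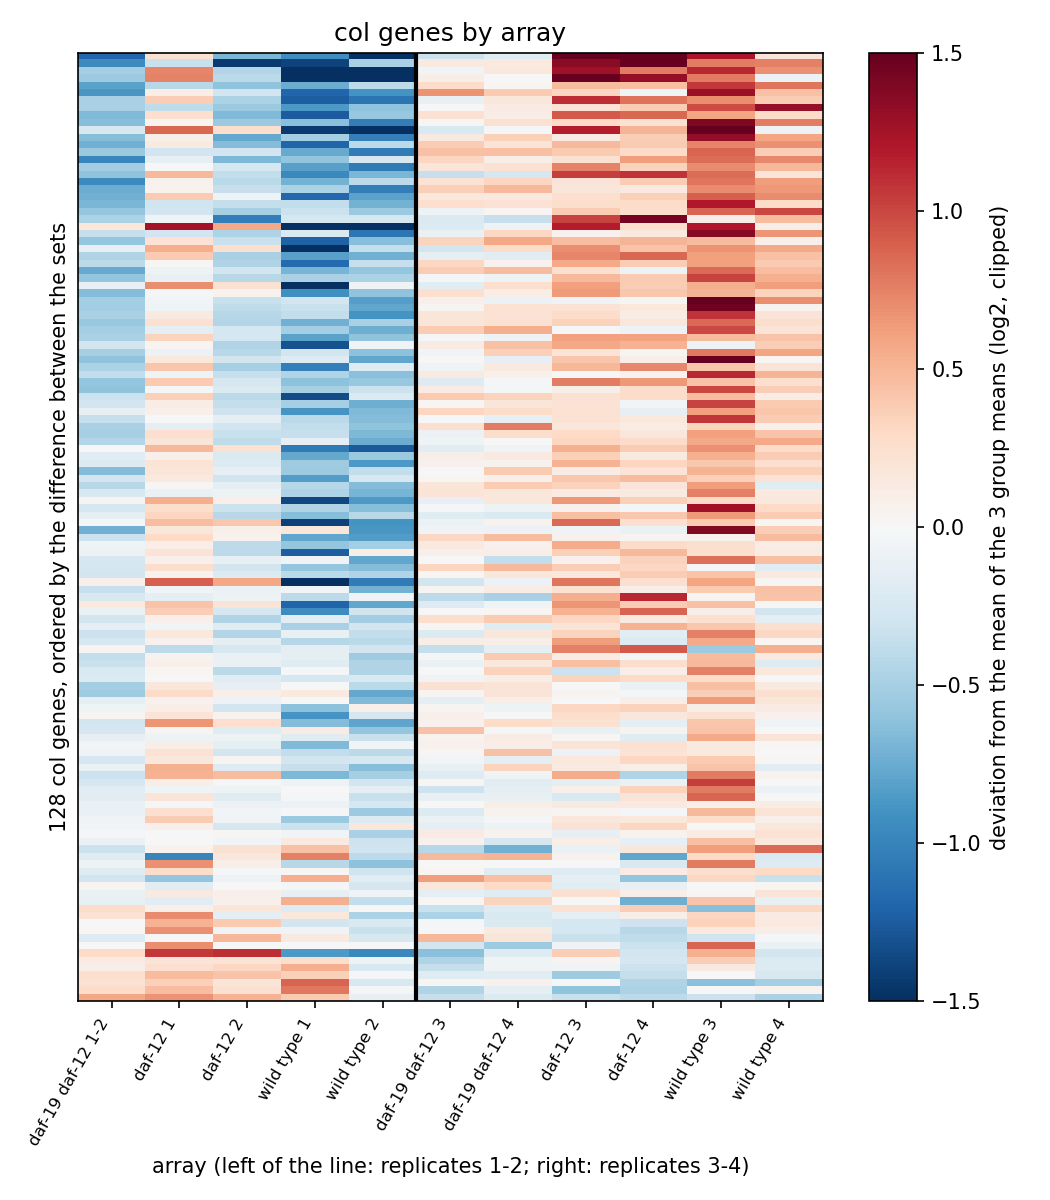
Deviation of each of the 128 col genes (rows) on each of the 11 arrays (columns) from the mean of its 3 group means, on the log2 scale with colours clipped at both ends of the scale. Replicates 1-2 stand left of the line and replicates 3-4 right of it, and the lowest medians are those of wild-type arrays 1 and 2 (-0.45 and -0.50) and the highest that of wild-type array 3 (0.54).

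The 12 members with the largest rise were col-156 (1.82), col-182 (1.81), col-130 (1.50), col-180 (1.35), col-105 (1.16), col-44 (1.16), col-77 (1.15), col-150 (1.13), col-104 (1.13), col-139 (1.11), col-2 (1.09) and col-89 (1.08). For col-105 the values on replicates 1-2 were 5.54 in the double mutant, 5.93 and 5.74 in the single mutant and 5.60 and 5.95 in wild type. On replicates 3-4 they were 6.62 and 6.38, 6.82 and 6.79, and 7.40 and 7.14 in the same order of genotypes. All 6 of these lay above all 5 of the first set, and the fitted difference was 1.16 ± 0.14 (SE), 2.24-fold, with the smallest limma adjusted p of any member, 7.42e-04. For col-182 the fitted difference was 1.81 ± 0.26, 3.50-fold, and for col-156 it was 1.82 ± 0.29, 3.53-fold, although single mutant array 1 of col-156 (8.71) lay above both double mutant arrays of replicates 3-4. The dauer-associated gene col-2 rose 2.13-fold (1.09 ± 0.25, limma adjusted p of 0.0109), while col-19 differed by 0.21 ± 0.16 (limma adjusted p of 0.376) and col-12 by 0.62 ± 0.27 (limma adjusted p of 0.110).

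The 3 members that fell were col-99 (-0.77), col-163 (-0.61) and col-63 (-0.55). The first, col-99, encodes a transmembrane collagen. It read 6.50, 6.60, 6.45, 6.32 and 5.81 on replicates 1-2 and 5.58, 5.72, 5.59, 5.54, 5.61 and 5.45 on replicates 3-4, and the sets did not overlap. Its fitted difference was -0.77 ± 0.13 with a limma adjusted p of 0.00341, but its second, dimmer probe set gave -0.01 (limma adjusted p of 0.959). The gene col-163 is dim, with a mean of 4.30, and lost its call (adjusted p from 0.0504 to 0.0683) when any 1 of double mutant arrays 1-2 and 3, the 4 single mutant arrays and wild-type array 1 was left out. The gene col-63 read between 8.88 and 9.37 on replicates 1-2 and between 8.37 and 8.90 on replicates 3-4, and its adjusted p was 0.0511 without single mutant array 3.

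**Figure D3:**
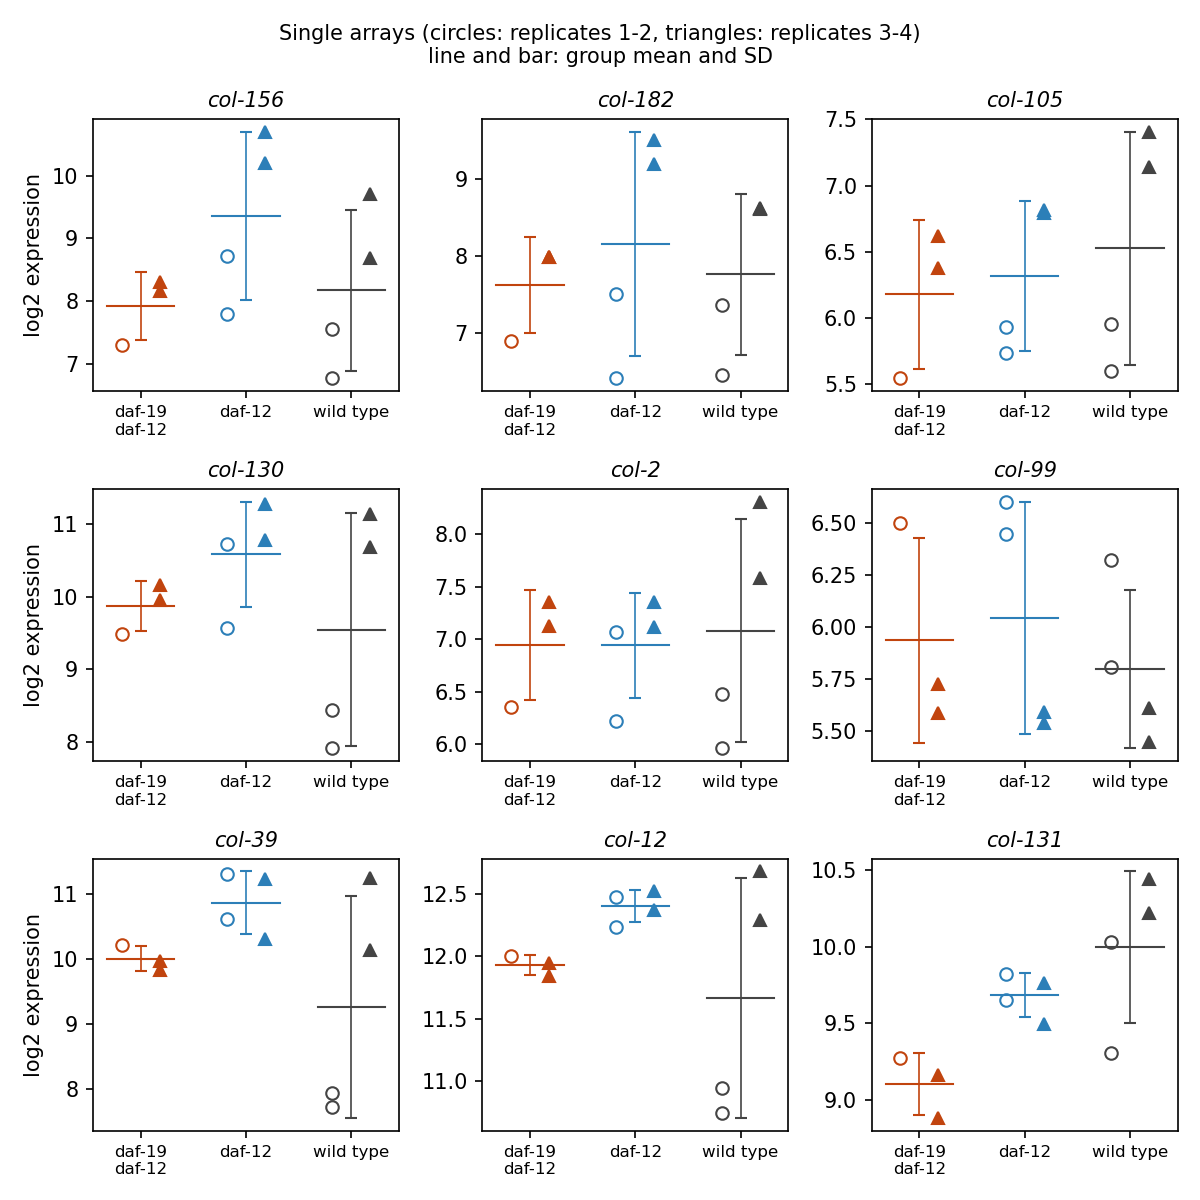
Log2 expression of 9 col genes on single arrays in the 3 genotypes, with replicates 1-2 as open circles, replicates 3-4 as triangles, and the group mean and SD as a line and bar. The triangles lie above the circles within each genotype for col-156, col-182, col-105, col-130 and col-2 and below them for col-99, while col-39 and col-12 differ between the sets in wild type and col-131 is lowest in the double mutant.

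The calls were spread over the range of signal. Of 30 members with a mean up to 6, 8 were higher and 2 lower, of 49 with a mean above 6 and up to 8, 28 were higher, and of 17 with a mean above 8 and up to 10, 9 were higher and 1 was lower. Of 15 with a mean above 10 and up to 12, 8 were higher, and of the 17 above 12, 7 were higher. The median set difference in these classes was 0.32, 0.57, 0.84, 0.73 and 0.57. By probe design, 34 of 77 ordinary probe sets, 15 of 29 of the _s_at kind and 11 of 22 of the _x_at kind were higher, with medians of 0.53, 0.58 and 0.56.

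Probe sets of 1 gene did not always give the same call. For col-150 the second probe set gave -0.12 where the first gave 1.13 (limma adjusted p of 0.582 and 0.00513). For col-97 and col-109, both chosen after their values were seen, the brighter probe sets gave 0.20 and 0.52 and were not called, while the dimmer ones gave 0.92 and 1.32 and were called (limma adjusted p of 0.0309 and 0.0188). The gene table places 26 pairs of col genes next to each other, and in 12 pairs both are members. Both were called higher in 5 of these pairs (col-50 and col-51, col-104 and col-105, col-149 and col-150, col-183 and col-184, col-9 and col-44, listed here for their position), 1 of the pair was called in 3 and neither in 4. The median absolute difference of the set change within a pair was 0.29.

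The size of the set difference differed between genotypes. The members' median was 0.92 in wild type, 0.24 in the single mutant and 0.35 in the double mutant, against -0.01, -0.07 and -0.03 for all probe sets. In limma 58 members were higher and 0 lower within wild type (4.20% and 4.10% of all probe sets, and 90 and 2 members at an unadjusted p under 0.05 against 12.5% and 13.1%). Within the single mutant 14 were higher and 5 lower (8.71% and 8.33% of all probe sets). The 5 were col-63, col-99 and col-163 and, chosen after their values were seen, col-78 and col-80. Within the double mutant, which has 1 array in the first set, limma called 0 in either direction (1.41% and 0.452% of all probe sets), and 25 were higher and 1 lower at an unadjusted p under 0.05, against 11.8% and 8.41%. A difference above 1 was found for 61 members in wild type (47.7%, against 4.21% of all probe sets). It was found for 8 members in each mutant (6.25%), near the 5.12% of all probe sets in the double mutant and below the 8.32% in the single mutant.

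**Figure D4:**
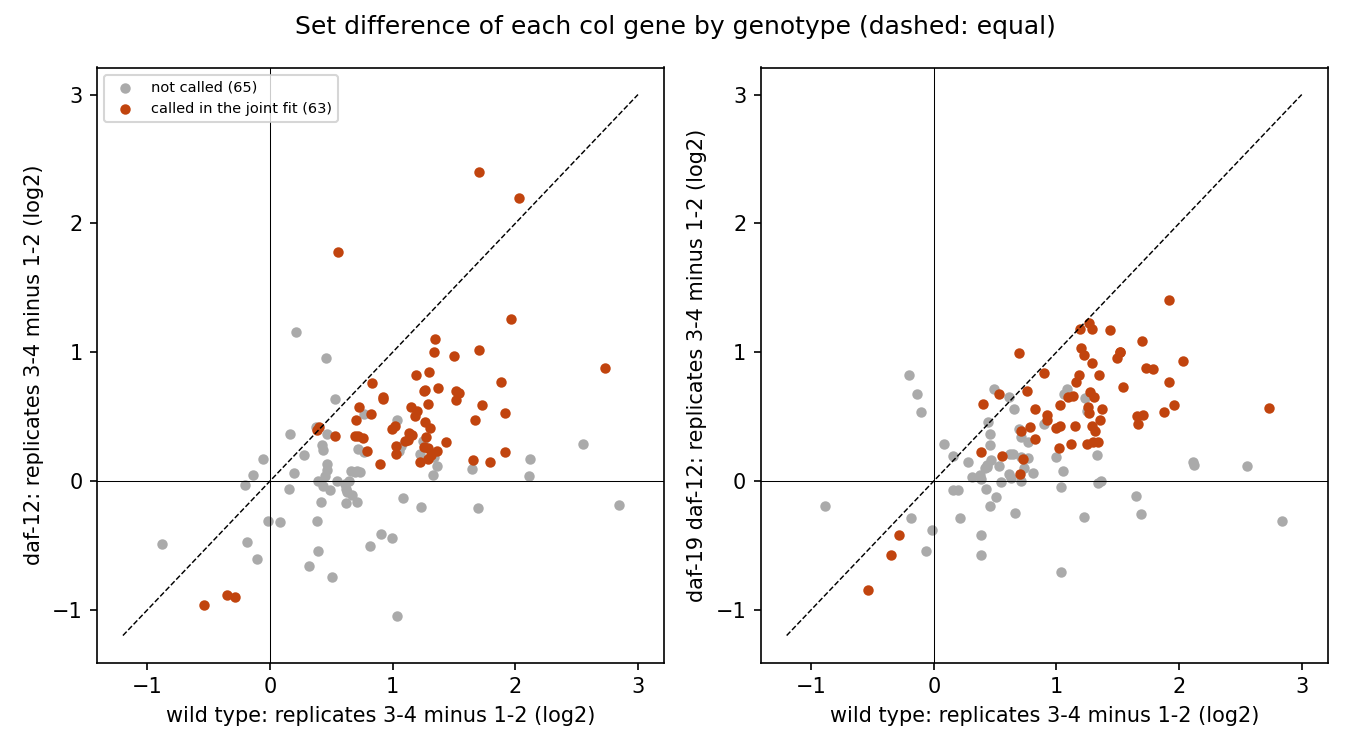
Difference between replicates 3-4 and 1-2 of each of the 128 col genes on the log2 scale, in wild type on the horizontal axis and in the single mutant (left) or the double mutant (right) on the vertical axis. Orange points are the 63 genes called in the fit over all genotypes, and most points lie below the dashed line of equal differences, 114 of 128 in the left panel.

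Array by array, the median deviation of the members from their means was -0.27, 0.01 and 0.08 in the double mutant (arrays 1-2, 3 and 4), 0.12, -0.19, 0.23 and 0.20 in the single mutant and -0.45, -0.50, 0.54 and 0.20 in wild type. Single mutant array 1 thus overlapped the arrays of replicates 3-4. The number of members above their own mean ran from 3 of 128 on wild-type array 2 to all but 9 on wild-type array 3. The median SD over a genotype's arrays was 0.62 for the members in wild type, against 0.29 in the single mutant and 0.27 in the double mutant. For all probe sets these SDs were 0.35, 0.30 and 0.23. Without the wild-type arrays, a setting chosen after seeing the data, 22 members were higher and 4 lower between the sets and the median was 0.30. The share of all probe sets called in that setting was not taken, so these counts cannot be set against it.

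Whether a genotype difference itself differs between the sets was tested as an interaction. In limma 0 members were called in any of the 3 comparisons, and 0% of all probe sets were called either. At an unadjusted p under 0.05 the interaction of the single mutant and wild type was below 0 for 43 members and above for 1, against 7.41% and 9.84% of all probe sets, with a median of -0.64. For the double mutant and wild type the counts were 31 and 0 (3.53% and 4.47%), with a median of -0.50. For the double mutant and the single mutant they were 3 and 9 (8.71% and 8.96%), with a median of 0.11. The smallest p was that of col-12, whose wild-type set difference was 1.64 and daf-12 set difference 0.10 (interaction -1.55 ± 0.29 SE, limma adjusted p of 0.145). For col-39 the set differences were 2.84 and -0.19, and the limma adjusted p of the interaction was 0.147. The wild-type set difference was larger than that of the single mutant for 114 of 128 members and 56.6% of all probe sets. Over the 128 members the wild-type set difference correlated with that of the single mutant at r = 0.46 and with that of the double mutant at r = 0.44, and over all probe sets at 0.43 and 0.57. Members are not independent of each other, since they share arrays.

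Other genes of cuticle synthesis were set beside the members, in the same contrast that called 10.9% of all probe sets higher and 13.7% lower. Among 18 furrow and body-shape collagens outside the col family, 4 were higher on replicates 3-4 and 1 lower, with a median of 0.36. The body-shape collagen genes sqt-2 (1.08 ± 0.19, limma adjusted p of 0.00397) and lon-3 (0.90) rose, as did rol-6 (0.82) and dpy-13 (0.43), while the furrow collagen gene dpy-8 fell (-0.76, limma adjusted p of 0.0102). The early furrow gene dpy-7 differed by 0.33 ± 0.22 (limma adjusted p of 0.296). Of 4 collagens outside the cuticle, 3 were lower: let-2 (-1.07) and emb-9 (-0.91), the type IV chains of the basement membrane, and cle-1 (-0.97), a collagen of the type XV and XVIII family, which is named to complete the list. The collagen gene mec-5 rose (0.87).

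Of 23 transcription factors of moulting and the epidermis, 8 were lower on replicates 3-4 and 0 higher, with a median of -0.29. For this and the following lists, 13.7% of all probe sets were called lower and 10.9% higher. The nuclear receptor gene of moulting nhr-23 read 8.17, 7.12, 8.46, 8.64 and 8.25 on replicates 1-2 and 7.40, 7.50, 6.30, 6.08, 7.19 and 6.67 on replicates 3-4. The sets overlapped through single mutant array 1, which was also the first-set array with the highest col median, and the fitted difference was -1.35 ± 0.25 (limma adjusted p of 0.00438). The membrane-bound moulting factor gene myrf-1 differed by -1.24 (limma adjusted p of 0.00266) and ztf-6 by -1.38 (limma adjusted p of 0.00180). Of 21 genes for collagen modification 1 was higher (bli-5, a protease inhibitor homologue, 0.84) and 1 lower (doxa-1, -0.61), and of 11 for collagen secretion 0 were higher and 2 lower (sec-24.1, -0.94, and sec-23, -0.45, both of the vesicle coat). Of 39 cuticlins and related genes 3 were higher and 4 lower, among them cutl-26 (0.60), cutl-7 (-0.96) and cutl-17 (-0.98). Of 11 genes of the TGF-beta body size pathway 2 were higher (lon-1, 0.95, and sma-3, 0.67) and 0 lower.

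**Figure D5:**
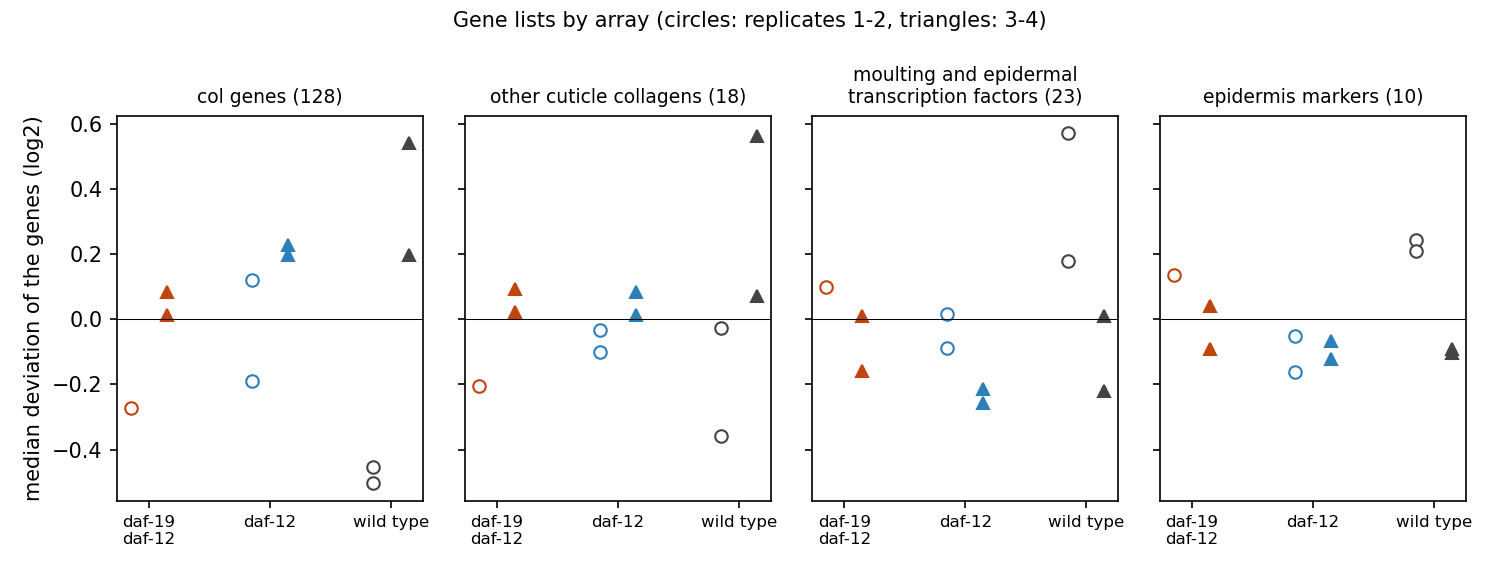
Median deviation from the mean of the 3 group means, on the log2 scale, for the 128 col genes, 18 other cuticle collagens, 23 transcription factors of moulting and the epidermis and 10 epidermis markers, with 1 point an array (circles for replicates 1-2, triangles for replicates 3-4). The col genes range from -0.50 to 0.54 in wild type, and the other panels show the same arrays on the same axis.

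Markers of cell types were compared between the same sets. Of 10 epidermal markers limma called 0. At an unadjusted p under 0.05, 4 of them were lower and 0 higher, against 21.1% and 18% of all probe sets. Their mean level was 9.55 to 9.86 on replicates 1-2 and 9.53 to 9.68 on replicates 3-4. Of 10 neuron markers 2 were higher (unc-119, 1.08, and egl-3, 0.61), with mean levels of 9.13 to 9.78 and 9.33 to 10.15. Of 10 muscle markers 2 were higher (hlh-1, 1.05, and mup-2, 0.36), with mean levels of 10.62 to 11.27 and 10.79 to 11.22. Of 9 intestine markers 2 were higher (ges-1, 0.41, and pho-1, 1.03), with mean levels of 9.73 to 10.22 and 10.01 to 10.37. Of 10 germ line and early embryo markers 1 was higher (glh-1, 0.67) and 2 lower (oma-1, -0.77, and mex-5, -0.49), with mean levels of 6.13 to 6.43 and 5.85 to 6.45. The part of cell makeup or embryonic stage in the set difference of the col genes was not tested. Of the 172 genes on these lists, limma called 0 in any of the 3 genotype comparisons. In the double mutant against the single mutant 21 had an unadjusted p under 0.05, where 2.39% of all probe sets were lower and 2.53% higher. In the double mutant against wild type 7 did (2.08% and 1.93% of all probe sets). In the single mutant against wild type 3 did (1.09% and 1.93%).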

How the data were processed

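RNA of whole embryos was measured on 12 Affymetrix arrays, and the authors deposited log2 values made with RMA, per the submitters' processing notes. RMA corrects background, normalizes arrays to each other and summarises the probes of a probe set. Near-identical genes may share signal within a probe set. Both identical columns of the double mutant were counted as 1 array, and 0 columns lacked a sample. Of 22625 probe sets 77 were controls and stayed out, and 22548 entered the tests. By the platform annotation 20766 of all probe sets name 1 gene (17118 genes), 887 several and 895 none, and 144 name 1 col gene. A gene table of assembly WBcel235 served for names and neighbours only.

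Genotypes were compared by linear models on the log2 values with empirical Bayes moderation (limma 3.58.1 in R 4.3.3), two-sided, over all 3 groups, with Benjamini-Hochberg adjustment over all tested probe sets and a threshold of 0.05. The set of arrays was a second term for its own contrast, and the interaction came from cell means of genotype by set. The models were tested on simulated data. The members and gene lists were chosen with earlier results of these data known.

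Named members were the 10 highest and 4 lowest by mean, all called members up to 12 a direction, in each genotype comparison the 5 furthest on each side and the 3 with the smallest p, genes of known stage or type, and members whose probe sets gave opposite signs with a difference over 1. Of the genes of known stage or type, col-1, col-6, col-7 and col-13 had no probe set of their own. For the other lists the 3 genes with the smallest p were named. The planned search for promoter motifs was not run, and no sequences were used here.

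Alternatives changed the normalization (centring, quantile), the filter on dim probe sets (lowest 25 percent), the choice of probe set, the variance model, array weights, the identical columns, the set or the replicate number as a block, and each array in turn. The deviations of same-numbered arrays from their group means correlated at 0.22 to 0.29 between both mutants, at 0.33 to 0.49 between double mutant and wild type, and at -0.03 to 0.67 between single mutant and wild type. The own number gave the highest correlation for 2 of 4 arrays in each. These values do not show whether the numbers pair the arrays in any of these comparisons. The labels state no pairing, and the numbers are nested in the 2 sets. Double mutant numbers 1 and 2 are 1 array, so 1 of these 2 numbers had to match best and the other not.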

Additional observations from a re-analysis of the deposited data

Results flagged for a closer look

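In 4 of the 98 groups of 4 arrays tested (the named members and the median of all members, in the single mutant and in wild type), 1 array stood far from the other arrays of its group by Dixon's test, which flags about 1 in 20 groups by chance. For col-148, wild-type replicate 3 read 7.61 on the log2 scale and the nearest wild-type array 6.74. For the dim gene col-163, wild-type replicate 1 read 5.07 and the nearest array 4.34. For the highly expressed gene col-165, wild-type replicate 1 read 12.78, below the nearest array at 13.48. For col-181, single mutant replicate 2 read 4.51, below the nearest array at 5.05.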

How the results depend on the processing

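Of the counts and medians over the col genes, 270 values under an alternative stayed close to the reported ones and 18 moved. Close meant, for a median, within the SD of the array medians, 0.35 for genotype comparisons and 0.21 between the sets. The first is larger than every genotype median over all arrays, so a change of sign could still count as close. A count of 0 that stayed 0 also counted as close, so these totals do not measure robustness. Medians near 0 changed sign within a set: the double mutant against wild type gave 0.16 within replicates 1-2 against -0.02 over all arrays (-0.16 to 0.17 when 1 array was left out), and the single mutant against wild type gave -0.20 within replicates 3-4 against 0.11. In the double mutant against the single mutant, the counts of called col genes became 9 lower within replicates 3-4, and 3 lower (col-58, col-56, col-131) and 3 higher (col-121, col-76, col-140) with array weights, whose estimation stopped before its convergence tolerance. In the double mutant against wild type the count of lower col genes became 1 within replicates 3-4 and 1 with array weights, col-131 each time. Between the sets the count of lower col genes was 0 within the double mutant, 5 within the single mutant and 0 within wild type, and 1 (without single mutant replicate 3) to 5 (without wild-type replicate 2) when 1 array was left out. The count of higher col genes was 34 of 80 with ordinary probe sets alone, 0 within the double mutant, 14 within the single mutant, 22 without the wild-type arrays and 44 to 61 when 1 array was left out. The median set difference was 0.24 within the single mutant, 0.92 within wild type, 0.30 without wild type and 0.45 to 0.65 when 1 array was left out. The interaction of the double mutant and the single mutant had 2 calls with all 12 columns as separate samples. For array weights, ordinary probe sets alone, the 12 columns and arrays left out, the share of all probe sets called was not taken.

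With the replicate number as a block, 0 col genes were called in any genotype comparison. Of all probe sets, 0.0532% were called lower and 0.00887% higher in the double mutant against the single mutant. Against wild type these shares were 0.12% and 0.0222% for the double mutant, and 0% and 0.00887% for the single mutant. At an unadjusted p under 0.05 limma gave 16 col genes lower in the double mutant against the single mutant (4.00% of all probe sets). There col-156 was at -1.93 ± 0.25 (limma adjusted p of 0.0505). The block changed no call of a col gene.

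For single genes, 1052 values under an alternative kept direction and call, 35 lost the call, 12 gained one and 12 changed sign. Without 1 array, col-163 lost its call in 7 of the leave-outs, col-63 lost it without single mutant replicate 3 (-0.48, limma adjusted p of 0.0511) and col-44 without double mutant array 1-2 (1.07, limma adjusted p of 0.0513). Without wild type the limma adjusted p was 0.0953 for col-130, 0.100 for col-44 and 0.0562 for col-2. The sign changes in the double mutant against the single mutant were col-40 (-0.06) and col-35 (-0.31) within replicates 1-2. In the double mutant against wild type they were col-39 (-0.79), col-180 (-0.30), col-146 (-0.20) and col-98 (-0.55) within replicates 3-4, col-98 (-0.39) without wild-type replicate 1 (-0.39 to 0.82 over all arrays left out in turn), and col-148 (0.02) and col-149 (0.04) within replicates 1-2. In the single mutant against wild type they were col-149 (0.37) and col-131 (0.07) within replicates 1-2 and col-149 (0.03) without wild-type replicate 3 (-0.75 to 0.03 over all arrays left out in turn). None of these sign changes concerned a called value, and the cause was not tested.

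Within replicates 1-2 the lone double mutant array is assumed to vary like the other groups. The scalings moved the median of all probe sets by under 0.1. Signal near background limits the dimmest members, and 7 of 128 had means under the lower quartile of all probe sets.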

Other observations

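A further 17 probe sets name several genes with at least 1 col gene and were outside the members. The probe set of col-127 and col-126 read 9.52, 8.87 and 8.87 in the double mutant, 11.66, 10.51, 11.75 and 10.23 in the single mutant and 8.74, 8.40, 9.86 and 9.18 in wild type. The single mutant lay above every array of both other genotypes. The double mutant differed from the single mutant by -1.95 ± 0.43 (SE, 3.87-fold lower, limma adjusted p of 0.294) and the single mutant from wild type by 1.99 ± 0.40 (limma adjusted p of 0.707). These comparisons share the single mutant arrays. This probe set was chosen after its values were seen, and its signal cannot be assigned to either gene. The own probe sets of both genes differed far less within each set of arrays. In set order, double minus single mutant was -0.08 and -0.15 for col-126 and -0.20 and -0.01 for col-127. Single mutant minus wild type was 0.10 and -0.19 for col-126 and 0.13 and -0.16 for col-127. The own probe set of col-126 was among the dimmest of the members.

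The probe set of col-162 and col-161 read 7.33, 7.82 and 7.68 in the double mutant, 9.17, 7.61, 10.05 and 9.30 in the single mutant and 7.40, 6.55, 9.15 and 8.05 in wild type, and the groups overlapped. The double mutant differed from the single mutant by -1.43 ± 0.61 (SE, limma adjusted p of 0.979) and the single mutant from wild type by 1.25 ± 0.56 (limma adjusted p of 1). The probe set was higher by 1.20 on replicates 3-4 (limma adjusted p of 0.0279). The pair of probe sets shared by col-12 and col-13 read 10.81 to 10.90 on wild-type arrays 1 and 2 and 11.68 to 12.73 on all other arrays. The wild-type arrays 1 and 2 were also the lowest for the probe set of col-12 alone.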
